A study of Mus musculus with 2 samples.

Results

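Cholesterol synthesis and brain sterol turnover were followed through 34 genes in the mouse hypothalamus after bezafibrate, a fibrate drug that activates the nuclear receptor PPARα and its relatives. The genes were chosen by name and function, with earlier results of these data known. They fall into 19 genes of the synthesis pathway, 5 genes that sense sterol, and 10 genes of sterol transport, efflux, esterification and turnover. All 34 were measured, out of 21441 genes with a measured probe, and all 34 were well above background on all 4 arrays, as were 15911 genes in all. The study set out to measure the effect of PPARα activation on hypothalamic gene expression, and compared mice given bezafibrate with control mice at ZT10 and at ZT22, zeitgeber times counted in hours from lights on. Each of the 4 groups was a pool of equal amounts of RNA from 4 mice, hybridized to 1 one-colour array. By the labelled schedule, mice aged 8 weeks received 2 weeks of normal feed, 2 weeks of feed containing 0.5% bezafibrate and 5 further weeks of normal feed. The labels do not settle at which stage the brains were taken, and they give neither the strain nor the sex. The tissue was a square block that contained the hypothalamus, so neighbouring tissue can be in it.

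The brain makes nearly all of its own cholesterol, because plasma lipoproteins do not pass the blood-brain barrier. Synthesis runs from acetyl-CoA through mevalonate to farnesyl diphosphate, squalene, lanosterol and cholesterol. When membrane sterol is low, SCAP escorts the transcription factor SREBP2 (Srebf2) to the Golgi for cleavage, and its cleaved form switches on the synthesis genes. When sterol is high, the INSIG proteins hold SCAP in the endoplasmic reticulum. Oxysterols activate the nuclear receptors LXRα (Nr1h3) and LXRβ (Nr1h2), which switch on efflux genes such as Abca1, Abcg1 and Apoe. Neurons dispose of cholesterol mainly by turning it into a hydroxysterol with CYP46A1, which leaves the brain. Myelin holds a large share of brain cholesterol, and astrocytes are a main source of apolipoprotein E.

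Values are processed intensities scaled so that the 75th percentile of each array is 1000, called scaled signals below, and differences are log2 ratios. The error that the scanner software assigns to such a ratio covers neither mice nor pools. It was 0.204 to 0.206 for every member in every comparison, so it is given here and not repeated at each ratio. Between 68.73% and 74.64% of 43379 features were well above background on each array, and no spot was saturated. With 1 pool per group ratios between arrays carry no p-value and no replicate check, and the number of arrays limits the precision. All 4 arrays lay on 1 slide, the control arrays at positions 1 and 2 and the bezafibrate arrays at positions 3 and 4, so diet and position cannot be told apart. In a tissue block, fewer cells of a type and less RNA per cell cannot be told apart either. Each array enters a diet comparison and a time comparison, so the diet and time ratios of a gene share pools.

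**Figure D1:**
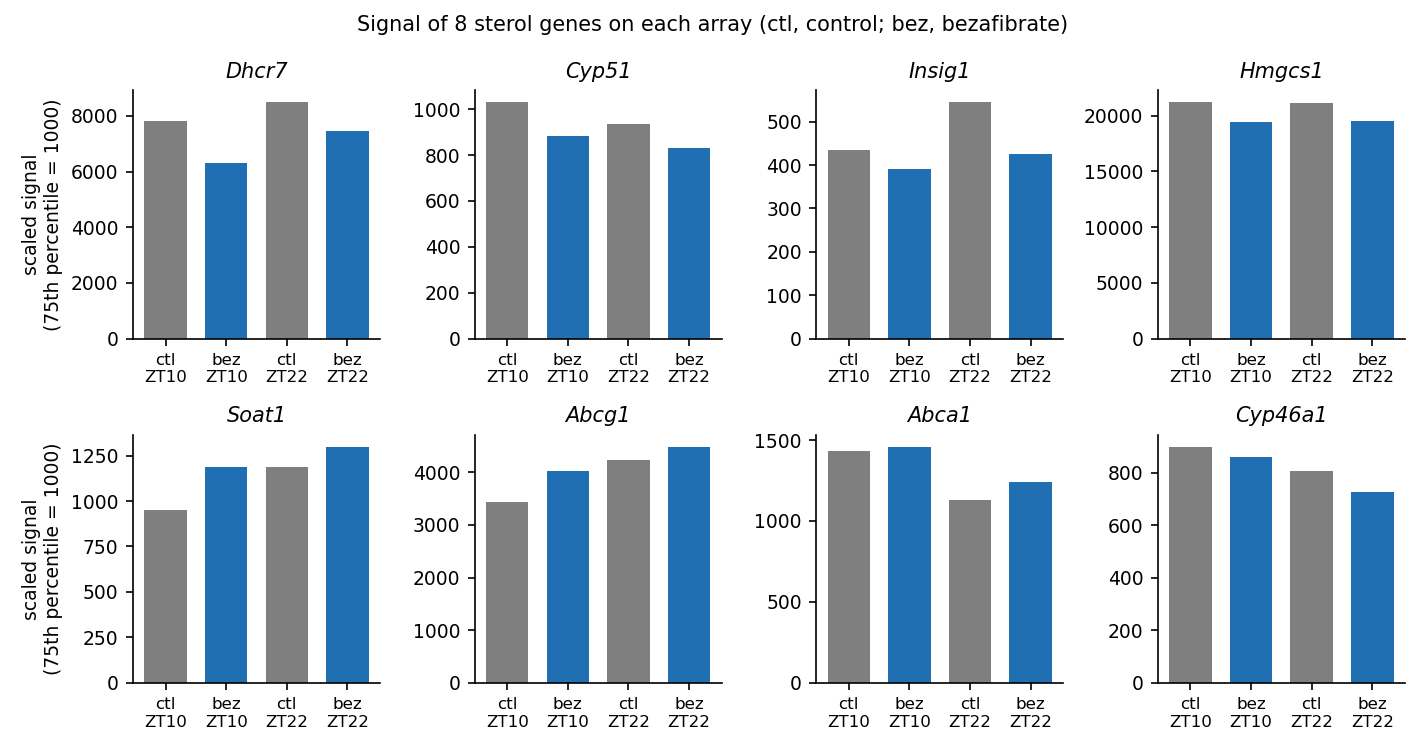
Scaled signal of 8 members on the 4 arrays (ctl, control; bez, bezafibrate), where the array's 75th percentile is 1000. Each bar is 1 array of 1 pool of 4 mice, so there are no error bars, each panel has its own linear axis from 0, and heights of different genes are not comparable. Both bezafibrate bars of Dhcr7, Cyp51, Insig1 and Hmgcs1 are below both control bars, and both ZT22 bars of Abca1 (1130 and 1240) are below both ZT10 bars (1430 and 1460). Bars are of the brightest probe, and other probes of Cyp51, Insig1 and Hmgcs1 did not all keep the order. The share of all genes with either order was not counted.

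Against control mice, the bezafibrate pools had slightly lower signals of cholesterol synthesis genes at both times, and no member differed by 1.5-fold at either time. At ZT10, 15 of 19 synthesis genes were lower in the bezafibrate pool, with a median log2 ratio of -0.07, against 47.5% of all genes and a median of 0.01. At ZT22, 15 of 19 were again lower, with a median of -0.05, against 47.5% of all genes and a median of 0.01. Counting genes lower at both times, the synthesis genes numbered 13 of 19, while 24.8% of all genes were so. Only 2 of the 19, Acat2 and Lss, were higher at both times, where 29.8% of all genes were. None of the 34 members was past 1.5-fold, against 2.19% of all genes at ZT10 and 2.83% at ZT22. Nor was the log2 ratio of any member larger than 2 scanner errors, where 3.43% of all genes were at ZT10 and 4.55% at ZT22. At ZT10, 7 of 34 exceeded their scanner error (Mvd, Cyp51, Dhcr7, Abcg1, Nr1h3, Soat1 and Npc1), against 14.2% of all genes. At ZT22 Acat2 and Insig1 did, against 16.4% of all genes. The efflux and turnover genes had a median of 0.06 at both times, and 3 of 10 at ZT10 and 4 of 10 at ZT22 were lower; that median turned to -0.03 and -0.01 with the authors' deposited ratio table and to -0.02 at ZT10 with the mean of all probes. The deposited table is centred lower for all genes, with 79.2% of them lower at ZT10 and 71.9% at ZT22, and centring on the median gave 57.6% at ZT10. Of the 19 synthesis genes, 18 (ZT10) and 17 (ZT22) were lower there. The median of the synthesis genes was thus below that of the efflux and turnover genes by 0.13 (a difference of -0.13) at ZT10 and by 0.11 (-0.11) at ZT22. The sterol-sensing genes had medians of 0.01 and 0.02, with 2 of 5 lower at each time, and these medians near 0 changed sign with the scaling.

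**Figure D2:**
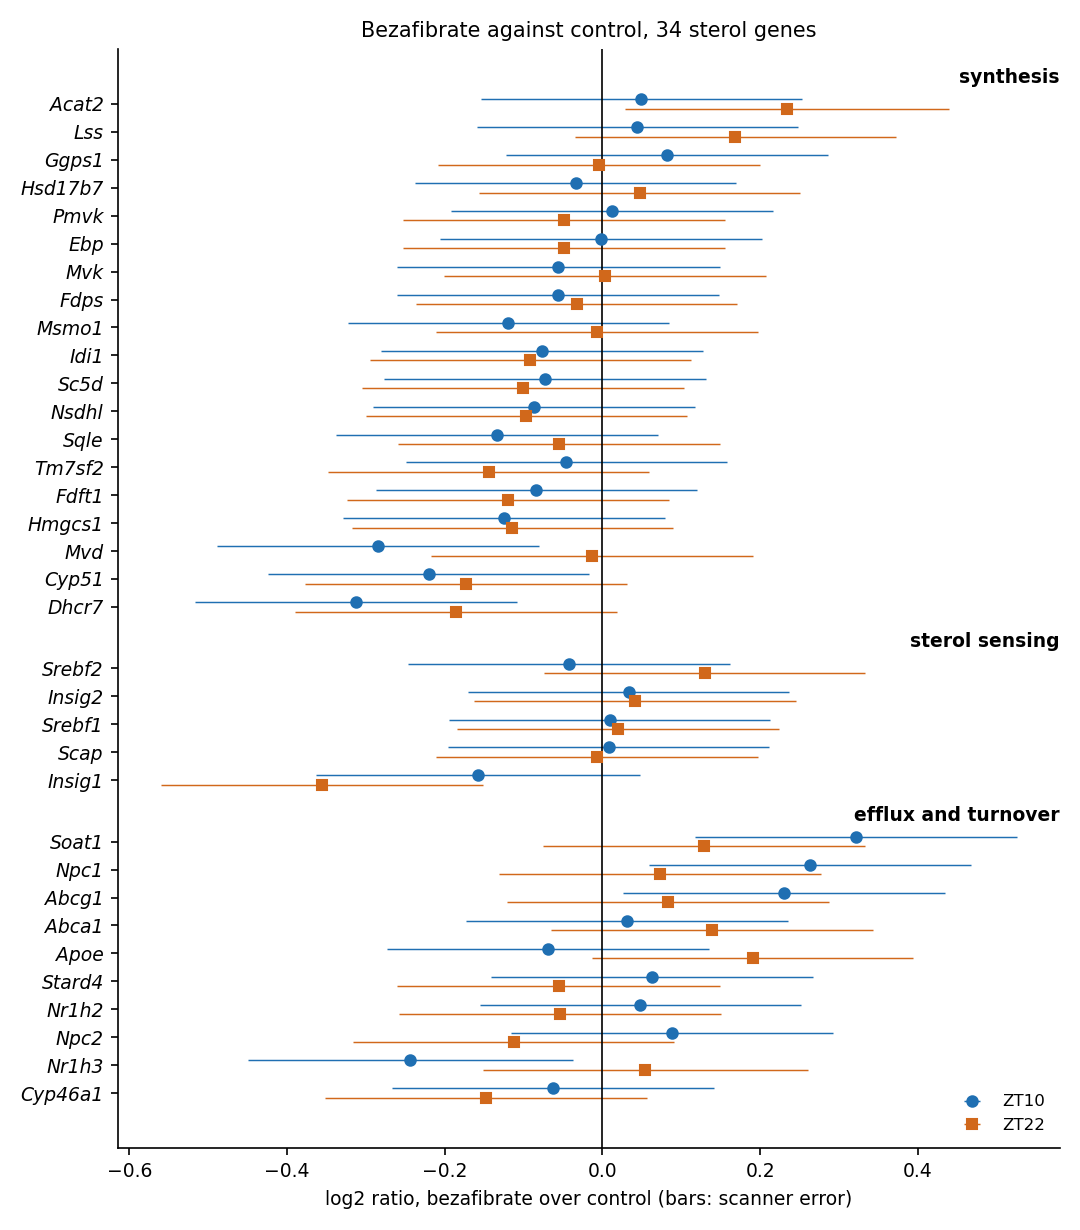
Log2 ratio of bezafibrate over control for each member at ZT10 and at ZT22, grouped by role, with bars for the scanner error (about 0.204). Of the 19 synthesis genes, 15 lie below 0 at each time, and every member lies within 1.5-fold.

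In the early, mevalonate part of the pathway the differences were small, apart from Mvd at ZT10 and Acat2 at ZT22. Acat2, the cytosolic thiolase that joins acetyl-CoA units, had scaled signals of 561 (control) and 581 (bezafibrate) at ZT10 and of 470 and 553 at ZT22. Its log2 ratios of 0.05 and 0.23 made it the highest member at ZT22. Hmgcs1, the HMG-CoA synthase that commits carbon to mevalonate, read 21200 and 19400 at ZT10 and 21100 and 19500 at ZT22, ratios of -0.13 and -0.11. By its brightest probe, both bezafibrate pools lay below both control pools. The brightest probes of Mvd, Fdps, Fdft1, Sqle, Cyp51, Nsdhl, Dhcr7 and Insig1 had the same order. For Fdps the nearest pools were almost level, at log2 scaled signals of 2.663 (bezafibrate, ZT10) and 2.666 (control, ZT22). For Mvd they were at 0.508 (bezafibrate, ZT22) and 0.522 (control, ZT22). The other probes of Fdft1 and Dhcr7 kept the order, but those of Hmgcs1, Fdps, Cyp51, Nsdhl and Insig1 did not all do so. The share of all genes with this order was not counted. Mvd, which decarboxylates mevalonate diphosphate, read 1620 and 1330 at ZT10, a ratio of -0.28, and 1440 and 1420 at ZT22, a ratio of -0.01. The kinases Mvk (-0.06 and 0.00) and Pmvk (0.01 and -0.05), the isomerase Idi1 (-0.08 and -0.09), the farnesyl diphosphate synthase Fdps (-0.06 and -0.03) and the geranylgeranyl diphosphate synthase Ggps1 (0.08 and -0.00) stayed within 0.10. Of these 8 genes, 5 were lower at ZT10 and 6 at ZT22, with medians of -0.06 and -0.02, against 47.5% of all genes at each time. The division of the pathway into this arm and the next was made after the values were seen.

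The squalene and lanosterol arm, 11 genes from squalene synthase to the last reductase, was lower in 10 genes at ZT10 and in 9 at ZT22, with 9 lower at both times and medians of -0.08 and -0.10. Of all genes, 47.5% were lower at each time and 24.8% at both. Dhcr7, the reductase that makes cholesterol in the last step of a branch, had scaled signals of 7830 (control) and 6300 (bezafibrate) at ZT10 and of 8490 and 7460 at ZT22. It was 1.24-fold lower at ZT10 (log2 ratio -0.31) and 1.14-fold lower at ZT22 (-0.19). Cyp51, the lanosterol demethylase, read 1030 and 884 at ZT10 and 936 and 830 at ZT22, ratios of -0.22 and -0.17. Lss, the lanosterol synthase, read 1920 and 1980 at ZT10 and 1620 and 1830 at ZT22, ratios of 0.04 and 0.17, but its other probes were lower at ZT22 and the mean of all its probes gave -0.24 there. The squalene synthase Fdft1 (-0.08 and -0.12), the squalene epoxidase Sqle (-0.13 and -0.06), the sterol dehydrogenase Nsdhl (-0.09 and -0.10) and the desaturase Sc5d (-0.07 and -0.10) were lower at both times by small amounts. So were the sterol reductase Tm7sf2 (-0.05 and -0.14), the methyl oxidase Msmo1 (-0.12 and -0.01) and the isomerase Ebp (-0.00 and -0.05). Hsd17b7, a ketosteroid reductase of the pathway, was at -0.03 and 0.05.

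Among the sensors, Insig1 was the only one with a ratio of like sign beyond 0.15 at both times. Insig1, itself a target of SREBP2, read 436 (control) and 390 (bezafibrate) at ZT10 and 545 and 426 at ZT22. It was 1.12-fold lower at ZT10 (log2 ratio -0.16) and 1.28-fold lower at ZT22 (-0.36), the lowest member at ZT22. Its relative Insig2 was at 0.03 and 0.04, Scap at 0.01 and -0.01, and Srebf1, which encodes SREBP1 and drives fatty acid synthesis, at 0.01 and 0.02. The brightest probe of Srebf2 was at -0.04 and 0.13.

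Transport and turnover genes had ratios of both signs, with counts of lower genes near the share of all genes. Soat1, the acyltransferase that stores cholesterol as esters, had scaled signals of 952 (control) and 1190 (bezafibrate) at ZT10 and of 1190 and 1300 at ZT22. It was 1.25-fold higher at ZT10 (log2 ratio 0.32, the highest member) and 1.09-fold higher at ZT22 (0.13) by its brightest probe. Its other 3 probes were lower at ZT10, and the mean of all its probes gave -0.09 there. Abcg1, which passes cholesterol to formed lipoproteins, read 3430 and 4020 at ZT10 and 4240 and 4490 at ZT22, ratios of 0.23 and 0.08. The diets overlapped for Abcg1, whose control pool at ZT22 was above its bezafibrate pool at ZT10. For Soat1 those 2 pools were nearly level, at log2 scaled signals of 0.249 (control) and 0.252 (bezafibrate). Npc1, the lysosomal membrane protein that exports cholesterol, read 487 and 585 at ZT10 and 467 and 492 at ZT22, ratios of 0.26 and 0.07. Its soluble partner Npc2 read 6780 and 7210 at ZT10, a ratio of 0.09, and 6790 and 6280 at ZT22, a ratio of -0.11. Abca1, the efflux transporter that loads lipid-poor apolipoproteins, was at 0.03 and 0.14. Apoe, the main apolipoprotein of the brain, was measured by 9 or 10 spots per array with SDs of 0.08 to 0.12 in log2, and was at -0.07 and 0.19. Nr1h3 read 292 and 247 at ZT10, a ratio of -0.24, and 254 and 264 at ZT22, a ratio of 0.05. Nr1h2 was at 0.05 and -0.05, the sterol carrier Stard4 at 0.06 and -0.06, and Cyp46a1 at -0.06 and -0.15. Of the members known as LXR targets (Abca1, Abcg1, Apoe, Srebf1 and Nr1h3), 2 of 5 were lower at ZT10 and 0 of 5 at ZT22, against 47.5% of all genes at each time. Their ratios at ZT22 ran from 0.02 to 0.19, none larger than its scanner error. The smallest lies within the constant offset of the deposited ratio table at ZT22 (-0.07), so that count depends on the scaling. The 22 members taken as SREBP2 targets were the 19 synthesis genes with Insig1, Srebf2 and Stard4, so their counts largely repeat those of the synthesis genes. Of these 22, 17 were lower at each time and 14 at both, against 47.5% and 24.8% of all genes. The 2 sets of targets were defined after the values were seen.

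Lower by 0.15 or more at both times were 3 of 34 members, Cyp51, Dhcr7 and Insig1, where 4.51% of all genes were. Higher by that much at both times were 0 members, where 2.67% of all genes were. A fit of additive effects takes diet to act alike at both times, and time alike in both diets. Its SE and p rest on how far the diet ratios of a gene differ between the times, moderated over all genes. They do not measure a spread between pools or mice. An additive limma fit of diet and time over the 4 arrays, with 1 residual degree of freedom, gave Cyp51 a diet effect of -0.20 ± 0.05 (SE) and an unadjusted p of 0.048. Dhcr7 had -0.25 ± 0.06 and 0.048 in that fit, and Insig1 had -0.26 ± 0.08 and 0.073. These were the 2 members under an unadjusted p of 0.05 for diet, where 5.4% of the 17549 genes fitted were. None passed after Benjamini-Hochberg adjustment in limma, with 0.872 as the smallest adjusted p of a member. In the whole table, 0.0% of genes passed for diet.

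The promoter sequences of Dhcr7, Cyp51 and Insig1 are shown because they are the members lower at both times beyond 0.15, and those of Soat1 (the highest at ZT10) and Hmgcs1 as contrasts. They were read from the RefSeq promoter table of build GRCm38.p6, which held 28 of the 34 members. Each run is the 150 bases before the annotated start, 5′ to 3′ on the gene's strand. Capitals mark CCAAT boxes (CCAAT or its reverse ATTGG), GC boxes (GGGCGG or CCGCCC), E-boxes (CACGTG) and a sterol response element (TCACNCCAC), each searched on both strands with no regard to overlap. Dhcr7 has 3 annotated starts, and the third is shown, at chr7:143830064-143830213 (+ strand), because it holds the CCAAT boxes. Cyp51 lies at chr5:4104698-4104847 (- strand), Insig1 at chr5:28071262-28071411 (+), Soat1 at chr1:156474329-156474478 (-) and Hmgcs1 at chr13:119690201-119690350 (+). Hmgcs1 was added after the values were seen, as the only member whose window holds the sterol response element.
Dhcr7: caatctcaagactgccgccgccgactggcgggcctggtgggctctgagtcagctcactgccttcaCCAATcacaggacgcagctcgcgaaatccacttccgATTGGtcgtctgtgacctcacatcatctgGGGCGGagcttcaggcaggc
Cyp51: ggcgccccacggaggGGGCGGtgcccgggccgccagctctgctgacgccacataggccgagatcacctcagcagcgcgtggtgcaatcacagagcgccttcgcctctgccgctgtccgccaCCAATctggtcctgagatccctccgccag
Insig1: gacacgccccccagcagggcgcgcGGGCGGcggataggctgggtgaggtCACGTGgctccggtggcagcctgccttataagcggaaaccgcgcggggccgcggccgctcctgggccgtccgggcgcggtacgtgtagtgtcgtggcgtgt
Soat1: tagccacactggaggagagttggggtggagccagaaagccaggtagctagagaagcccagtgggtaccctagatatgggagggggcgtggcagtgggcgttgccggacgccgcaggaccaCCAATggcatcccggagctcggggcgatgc
Hmgcs1: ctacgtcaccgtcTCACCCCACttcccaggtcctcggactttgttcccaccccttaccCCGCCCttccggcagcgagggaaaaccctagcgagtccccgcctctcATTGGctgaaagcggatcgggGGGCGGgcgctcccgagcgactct

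CCAAT boxes, the site of NF-Y, which acts beside SREBP2 at many synthesis promoters, were the most frequent motif in the synthesis genes. In the full 300-base window (250 before the start and 50 after), 15 of 16 synthesis genes (93.8%) held a CCAAT box, against 41.1% of 27025 genes. The GC box, the site of SP1, was in 14 of 16 (87.5%), against 38.2% of all genes. The efflux and turnover genes held a CCAAT box in 3 of 7 (42.9%) and a GC box in 4 of 7. Both motifs were also frequent in the sterol-sensing genes, the CCAAT box in 4 of 5 and the GC box in 5 of 5. In other sterol and isoprenoid enzymes they were in 7 of 13 (53.8%) and 9 of 13 (69.2%). The E-box was in 3 of 16 synthesis genes (18.8%) and in 8.09% of all genes, and the sterol response element was in 1 of 16 and in 1.44% of all genes. AGGTCA repeated after a gap of 4 bases, a form of the LXR site, and after a gap of 1 base, a form of the PPAR site, were in 0 of 28 members and in 0.0148% and 0.0481% of all genes. A match is a run of letters, not a bound site. In the printed runs, Cyp51, Soat1 and Hmgcs1 show a CCAAT box, as does the Dhcr7 start chosen for it. The printed run of Insig1 shows a GC box and an E-box only, but its full 300-base window holds 1 CCAAT box and 3 GC boxes.

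Other probes of the same genes gave a second reading from the same pools. Of 63 probes to the members, 61 were above background on all 4 arrays, and 18 members had more than 1 such probe. Every probe was lower at both times for 7 of these 18 (Hmgcs1, Idi1, Fdft1, Nsdhl, Sc5d, Dhcr7 and Insig1), against 6.67% of 6401 genes with several probes. Every probe was higher at both times for 0 of 18, against 9.48%. The other probe of Dhcr7 had processed signals of 745 (control) and 453 (bezafibrate) intensity units at ZT10 and of 676 and 410 at ZT22. Its log2 ratios of -0.77 and -0.54 were further from 0 than those of the brightest probe. The other probe of Insig1 gave -0.14 and -0.12. For Cyp51 the others gave -0.13 and -0.18, and -0.12 and 0.12. The other probes of Hmgcs1 gave -0.33 and -0.58, and -0.22 and -0.18.

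Several probes went against the brightest probe of their gene. The 3 other probes of Soat1 were all lower at ZT10 (-0.21, -0.12 and -0.37), where the brightest was at 0.32, so the higher value of Soat1 rests on its brightest probe. Both other probes of Lss were lower at ZT22 (-0.66 and -0.23). Another probe of Srebf2 read 52.5, 32.2 and 25.6 intensity units on the control array at ZT10 and the bezafibrate arrays at ZT10 and ZT22, but 277 on the control array at ZT22. Its ratio at ZT22 was therefore -3.26, while the remaining probes of Srebf2 were at 0.13 and 0.06. Over the 27 other probes of the 18 members, 19 had the sign of the brightest probe at ZT10 and 15 at ZT22. The median distance between the readings was 0.10 and 0.12 in log2, about the size of most differences given here.

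**Figure D3:**
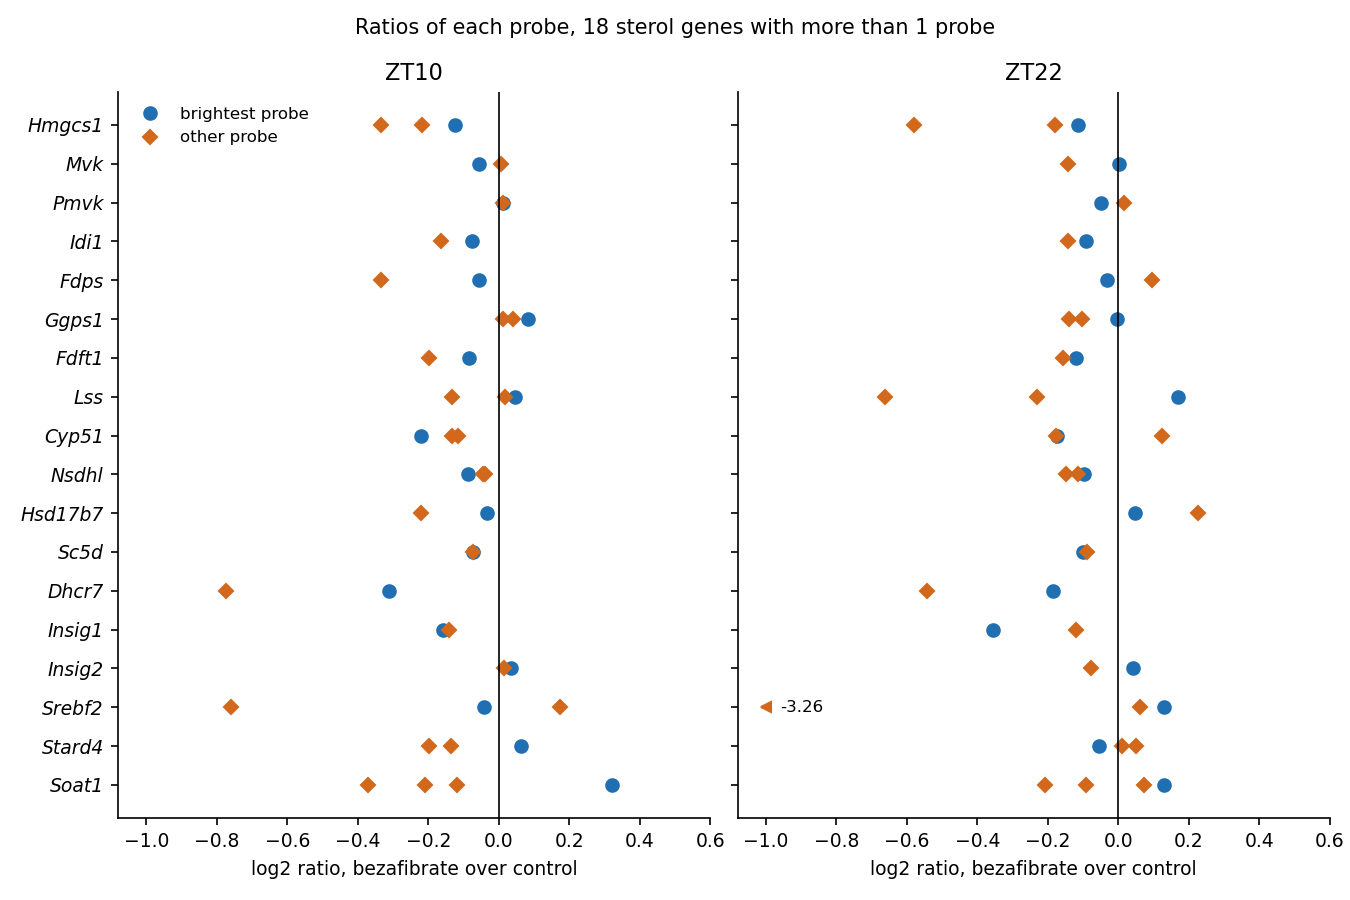
Log2 ratio of bezafibrate over control for every probe above background on all 4 arrays, for the 18 members with more than 1 such probe, at ZT10 and ZT22, with the brightest probe of each gene as a circle and the others as diamonds. The arrow marks a probe of Srebf2 beyond the axis, at -3.26. Every probe of Dhcr7, Hmgcs1 and Insig1 lies below 0 at both times, while the probes of Soat1 and Lss fall on both sides.

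Time of day was compared within each diet, ZT22 against ZT10, to ask whether these genes differ between light and dark phase. Synthesis genes had medians of 0.05 in control mice and 0.09 in bezafibrate mice, against 0.03 and 0.04 for all genes, and the former turned to -0.0054 with quantile normalization. Of the 19, 8 were lower at ZT22 in control mice and 7 in bezafibrate mice, against 40.8% and 40.6% of all genes. Of the 34 members, none was past 1.5-fold in either diet, where 3.71% (control) and 3.44% (bezafibrate) of all genes were. Lower in both diets were 6 synthesis genes, where 25.0% of all genes were, and higher in both were 10, where 42.8% were. The efflux and turnover genes had medians of -0.02 and 0.03, with 5 of 10 lower in each diet. Sensors had medians of 0.03 and 0.01, with 2 of 5 lower in each diet.

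Some members had ratios of like sign beyond 0.15 in both diets. Abca1 and Cyp46a1 were lower at ZT22, where 6.09% of all genes were, and Hsd17b7, Stard4 and Abcg1 were higher, where 9.73% were. Abca1 had scaled signals of 1430 (ZT10) and 1130 (ZT22) in control mice and of 1460 and 1240 in bezafibrate mice, log2 ratios of -0.34 and -0.23. Both ZT22 pools lay below both ZT10 pools, an order whose share over all genes was not counted. Cyp46a1 read 900 and 805 in control mice and 862 and 727 in bezafibrate mice, ratios of -0.16 and -0.25. Hsd17b7 read 516 and 607 in control mice and 504 and 627 in bezafibrate mice, ratios of 0.23 and 0.32. Stard4 read 1610 and 1990 in control mice and 1690 and 1910 in bezafibrate mice, ratios of 0.30 and 0.18. The other probe of Hsd17b7 gave -0.28 in control mice and 0.17 in bezafibrate mice, and the other probes of Stard4 gave -0.32 and -0.18 in control mice. Abcg1 was at 0.31 and 0.16. In the limma fit the unadjusted p for time was 0.029 for Hsd17b7, 0.032 for Abca1 and 0.048 for Stard4, the 3 members under 0.05, where 10.7% of all genes fitted were. After Benjamini-Hochberg adjustment in limma the smallest adjusted p of a member for time was 0.441, and 0.0% of all genes passed.

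The size of the time ratio differed between the diets for several members. Insig1 was higher at ZT22 by 0.32 in control mice and by 0.12 in bezafibrate mice, and Soat1 by 0.32 and 0.13. Acat2 was at -0.26 and -0.07, Lss at -0.24 and -0.12, and Npc1 at -0.06 and -0.25. Apoe was at -0.05 and 0.21, and Dhcr7 at 0.12 and 0.24. The value of Apoe in bezafibrate mice depended on the scaling, and was -0.0306 with quantile normalization. Other probes did not all repeat these differences between diets. Control, then bezafibrate, the other probe of Insig1 gave 0.16 and 0.18, and that of Dhcr7 -0.14 and 0.09. Those of Lss gave 0.36 and -0.32, and -0.17 and -0.27. Those of Soat1 gave 0.05 and 0.34, 0.29 and 0.20, and -0.34 and -0.06. Differences of the time ratio between diets were not tested.

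**Figure D4:**
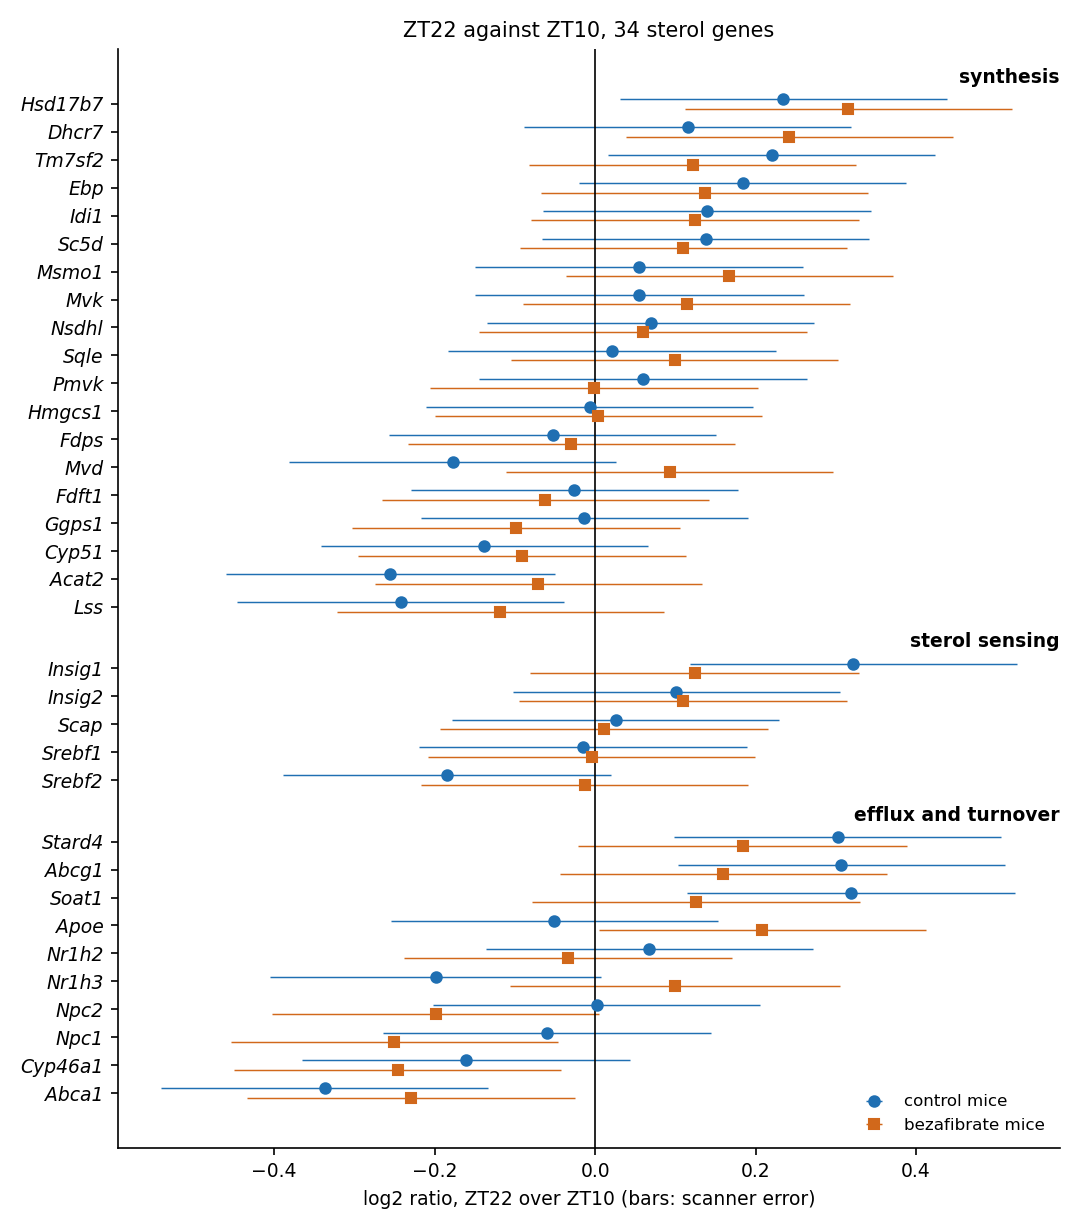
Log2 ratio of ZT22 over ZT10 for each member in control and in bezafibrate mice, grouped by role, with bars for the scanner error (about 0.204). Abca1 and Cyp46a1 lie below -0.15 in both diets, Hsd17b7, Stard4 and Abcg1 above 0.15, and no member is past 1.5-fold; with the mean of all probes, Hsd17b7 (-0.0205) and Stard4 (-0.0651) were lower in control mice.

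Other genes of the pathway were read from lists. The proteins that handle SREBP processing (10 genes) had diet medians of 0.01 at ZT10 and 0.01 at ZT22. Other sterol and isoprenoid enzymes had 5 of 14 lower at ZT10 and 6 of 14 at ZT22, medians 0.04 and 0.02. Coq2, which makes ubiquinone from the same isoprenoid pool, was at 0.16 and 0.14 for diet, and at 0.52 and 0.50 for time. Among 12 SREBP1 fatty acid targets, 9 were lower at ZT10 and 7 at ZT22, with medians of -0.05 and -0.02. The synthesis genes had 15 of 19 lower at each time, and of all genes 47.5% were lower at each time. The desaturase Fads1 was at -0.13 and -0.22. Other LXR targets had medians of -0.05 and 0.05, with Apoc1 at 0.36 and 0.38 and the phospholipid transfer protein Pltp at -0.16 and -0.23. Other sterol transport genes had medians of -0.03 and 0.02, with Abca7 at -0.17 and -0.20 and the receptor Vldlr at 0.18 and 0.14. Oxysterol and bile acid enzymes had medians of 0.06 and -0.08. No gene of these lists passed the limma fit after Benjamini-Hochberg adjustment.

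In these lists 3 genes were past 1.5-fold for diet at ZT22, where 2.83% of all genes were, and 2 of the 3 were high on the control array at ZT22. The site-2 protease gene Mbtps2 had scaled signals of 27.3, 31.8, 255 and 28.1 (control and bezafibrate at ZT10, control and bezafibrate at ZT22), a diet ratio of -3.18 at ZT22. Lrp8, a reelin and apolipoprotein E receptor, had scaled signals of 96.4, 91.3, 272 and 102, a diet ratio of -1.42, while its other probe was at -0.12. As with that probe of Srebf2, the control array at ZT22 is the high one. The steroid side-chain cleavage enzyme Cyp11a1, at low scaled signals of 18, 21.7, 21.3 and 13.9, was at -0.62 and was lowest on the bezafibrate array at ZT22.

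The cell types of the block were read from marker lists. Hypothalamic markers were present, 15 of 16 measured being above background on all 4 arrays. They had a diet median of -0.14 at ZT10, with 11 of 15 lower, and of 0.08 at ZT22. Of all genes, 47.5% were lower at each time. Anterior pituitary genes, 7 of 11 above background on all 4 arrays, were lower in 7 of 7 at ZT10, with a median of -0.35 and 3 past 1.5-fold. At ZT22 their median was 0.04, with 3 of 7 lower and 4 higher. The 1 past 1.5-fold at ZT22, Tshb, was higher (1.35), while its other probe was at -0.09. Prl and Gh, above background on 3 arrays, are outside these counts. Scaled signals of Prl were 376 and 16.9 at ZT10 and 58.6 and 2.7 at ZT22 (control, then bezafibrate), ratios of -4.48 and -4.44. Those of Gh were 199 and 15.1, then 63.3 and 10.4, ratios of -3.72 and -2.61. At these low signals the scanner errors at ZT10 and ZT22 were larger, 0.331 and 1.368 for Prl and 0.327 and 0.373 for Gh. Summed scaled signals were 301500 and 264300 at ZT10 and 316600 and 316300 at ZT22 for the hypothalamic list (control, then bezafibrate). The pituitary sums, without Prl and Gh, were 121900 and 109600, then 128200 and 127900. Chgb made up most of each, with 102000 and 99600, then 108000 and 111000. Myelin genes, of which all 18 were above background, had a diet median of -0.00 at ZT10 and -0.33 at ZT22, with 18 of 18 lower at ZT22. Their summed scaled signals were 268700 and 267300 at ZT10 and 284000 and 246200 at ZT22 (control, then bezafibrate). Choroid plexus genes, 11 of 12 above background, had a diet median of -0.06 at ZT10 and 0.87 at ZT22, with sums of 18210 and 16690, then 20650 and 26720. Astrocyte genes were at 0.01 and 0.06, neuron genes at -0.01 and 0.04, microglia genes at -0.03 and -0.03 and endothelial genes at 0.02 and -0.03. The part of these cell types and tissues in the differences above was not tested.

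**Figure D5:**
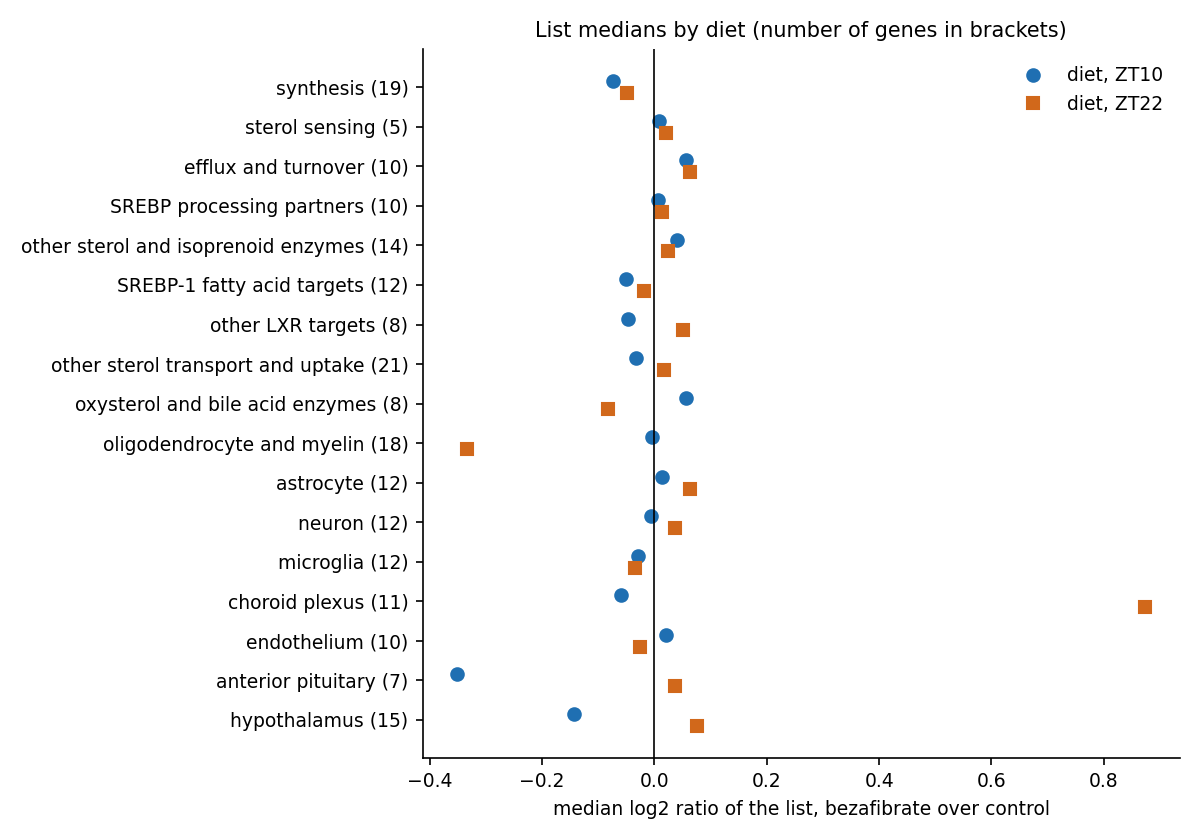
Median log2 ratio of bezafibrate over control for each gene list at ZT10 and at ZT22, with the number of genes above background on all 4 arrays in brackets and 1 value per pair of pools. The synthesis list lies below the efflux and turnover list at both times, by 0.13 and 0.11 (differences of -0.13 and -0.11), the pituitary list is lowest at ZT10 (-0.35), and the myelin (-0.33) and choroid plexus (0.87) lists stand furthest from 0 at ZT22.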

How the data were processed

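The data are 4 one-colour arrays of pooled RNA (400 ng labelled), each deposited sample holding the bezafibrate and the control array of a time. Per the file headers, the authors read the spots with Feature Extraction 9.5.1.1. Its processed signal, deposited by the authors, is a background-subtracted and detrended intensity with no scaling between arrays. Spots are also marked there as outliers, saturated or well above background. The deposited value table is, per the labels, a ratio of bezafibrate over control. It was linear, correlated with the processed-signal ratio at r of 0.9971 (ZT10) and 0.9935 (ZT22) across 28009 and 28805 probes, and differed from it by a constant log2 offset of -0.09 and -0.07. This also bears out which file is which, and the table served as an alternative. How the authors centred it is not given in the sources used here.

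The processed intensity was taken to log2, minus the array's 75th percentile over features that were not controls. The 73 to 142 outlier spots of each array were dropped, and repeated spots of a probe averaged. Of 41174 probes, 22892 were named by accession, 63 by member symbol, 5844 by symbol and 3943 by older symbol through RefSeq (GRCm38.p6, names alone), 2228 kept the file's name and 6204 had none. Msmo1 is listed in the files under its older symbol Sc4mol. The probe with the highest mean signal stands for a gene. Genes well above background on all 4 arrays were compared. Diet and time were fitted with limma 3.58.1 (lmFit, eBayes, Benjamini-Hochberg) on 17549 genes above background on at least 1 array, with 1 residual and 1.28 prior degrees of freedom. Scripts were tested on simulated data. Python 3.11.15, numpy 2.4.6, pandas 2.3.3 and R 4.3.3 were used.

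The members, lists and rules were chosen with earlier results of these data known. Named are members of like sign beyond 0.15 in both comparisons, the 3 highest and 3 lowest of each comparison, and, of each other list, up to 2 genes at each end of the mean diet ratio. Alternatives were another background correction (normexp, offset 50), quantile normalization, median centring, the mean of all probes, a minimum signal of 100 and the deposited ratio table. The mean spot signal was not used here, so normexp took the median spot and background intensities in its place.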

Additional observations from a re-analysis of the deposited data

Results flagged for a closer look

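Npc2, the soluble lysosomal cholesterol carrier, had a log2 ratio of bezafibrate over control of 0.088 at ZT10 and of -0.11 at ZT22, opposite signs at the 2 times. The difference was not tested, since each ratio rests on 1 pool per diet, and both ratios are smaller than the scanner error of 0.204.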

How the results depend on the processing

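The median diet ratio of the synthesis genes was below 0 under all 6 alternatives to the reported processing, at both times, and 15 to 18 of the 19 genes were lower. With the deposited ratio table it was -0.16 at ZT10, where the median of all genes was itself -0.08, and 79.2% of all genes were lower at ZT10 and 71.9% at ZT22. Median centring put 57.6% of all genes lower at ZT10, against 47.5%. Medians near 0 changed sign. For the sensing genes this held for time in bezafibrate mice with normexp (-0.0068), for time with quantile normalization (-0.0114 in control and -0.0295 in bezafibrate mice), for diet at ZT10 with median centring (-0.0169), for diet at ZT22 with the mean of all probes (-0.0174), and with the deposited table (-0.0816 at ZT10 and -0.0529 at ZT22). For the efflux and turnover genes it held with quantile normalization (-0.0385, time in bezafibrate mice), with the mean of all probes (-0.0155 for diet at ZT10 and -0.0033 for time in bezafibrate mice) and with the deposited table (-0.0314 at ZT10 and -0.0087 at ZT22). The synthesis median for time in control mice was -0.0054 with quantile normalization. With the mean of all probes, 1 member (Srebf2) passed 1.5-fold for diet at ZT22 (-1.02) and 1 for time in control mice (0.79), through the probe that was high on the control array at ZT22. Hsd17b7 (-0.0205) and Stard4 (-0.0651) then turned for time in control mice. Soat1 at ZT10 was -0.09 and Lss at ZT22 was -0.24. With quantile normalization Apoe for time in bezafibrate mice was -0.0306, against 0.21 in the reported processing. The cause of the other changes was not tested.

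Over the alternatives, 126 values of lists and counts kept sign and size, 13 changed sign and 3 moved. Leaving out an array gives no test, because each group has 1 array and the fit would have 0 residual degrees of freedom. No paired analysis was possible because each group has 1 array and the labels give no numbers that pair mice. Signal over background limits the precision of the dimmer probes.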
